A study of Mus musculus with 9 samples.

Results

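The transcripts of 51 enzymes of amino acid and creatine metabolism were followed in the kidneys of wild-type mice, young against old. The enzymes were taken from a list of gene symbols in 5 groups: glycine, serine and creatine (15 symbols), proline, arginine and glutamate (12), branched-chain amino acids (13), aromatic amino acids (5), and sulphur, lysine and acyl amino acids (6). The table of the series held 13081 genes and 50 of the 51 enzymes. 49 matched by symbol, and Mut was found under its newer symbol Mmut. Aldh18a1 had no row and was not analysed here. Kidneys of mice aged 3 months (young, n = 4) and 16 months (old, n = 5) were compared, all C57BL/6 and wild type, with no treatment other than age. Each library counts the ends of polyadenylated transcripts in whole kidney RNA.

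The kidney both makes and breaks down amino acids, and most of these enzymes are active in the proximal tubule. That segment takes up filtered amino acids, turns citrulline into arginine and glycine into serine, and makes guanidinoacetate, which the liver methylates to creatine. Branched-chain amino acids are transaminated and oxidised in mitochondria, where valine and isoleucine pass through propionate to succinyl-CoA. Sulphur amino acids reach cysteine by transsulphuration, and acylated amino acids are split by aminoacylases.

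The tables held 5093029 to 6355095 reads in the young libraries and 4486406 to 5794960 in the old ones. Library titles carry a prefix that follows age completely, so age and anything else that goes with the prefix cannot be told apart. Nothing in the labels says that each library came from a separate mouse, and p-values then measure only the spread between these libraries, which may be technical. In whole-kidney RNA, fewer cells of a type and less RNA per cell cannot be told apart. Mitochondrially encoded genes took 27.0 to 29.7% of reads in young and 35.8 to 38.1% in old libraries, of which mitochondrial ribosomal RNA made up 2.98 to 4.46% of reads in young and 21.8 to 25.4% in old. The other mitochondrially encoded genes took 23.8 to 25.3% of reads in young and 12.71 to 14.99% in old libraries. All 16 proximal tubule markers were present. Of these, 10 were lower, 3 were higher and 3 were not called in old kidneys, the list had a median of -0.42 (log2 fold change), and the mean log2 level of the list ran from 11.2 to 11.3 in young and from 10.8 to 11.1 in old libraries. Slc34a1, the phosphate transporter that marks the segment, had a log2 fold change of 0.04 and was not called, while Hnf4a, a transcription factor of proximal tubule cells, had a log2 fold change of -0.93 (adjusted p = 2.39e-07). Of 7 endothelial markers 4 were higher and 0 lower, with mean log2 levels of 7.62 to 7.68 in young and 7.80 to 8.18 in old libraries. Of the thick ascending limb markers 2 of 5 were higher, with mean log2 levels of 9.27 to 9.49 and 9.65 to 10.2. Of the tested leukocyte markers 3 of 6 were higher, with mean log2 levels of 5.81 to 6.40 and 6.28 to 6.98. Markers of principal cells (3 of 5 lower) and intercalated cells (4 of 5 lower, 1 higher) ran from 8.02 to 8.43 and from 6.75 to 7.04 in young and from 7.09 to 8.13 and from 6.14 to 6.54 in old libraries. Fibroblast and pericyte markers were lower in 4 of 6 and higher in 1, with mean log2 levels of 7.52 to 7.82 and 6.79 to 7.67. Mean log2 levels in young and old libraries were 8.20 to 8.47 and 8.65 to 8.98 for the distal convoluted tubule (2 of 4 higher, 2 lower), 6.66 to 6.80 and 6.85 to 6.96 for podocytes (3 of 6 higher, 2 lower), and 8.29 to 8.39 and 8.46 to 8.72 for injury markers (2 of 3 higher, 1 lower). Adipocyte markers varied within both ages, with mean log2 levels of 2.07, 6.86, 3.81 and 2.27 in the young and 5.89, 3.24, 7.58, 1.73 and 4.66 in the old libraries. The labels give no sex. The Y-linked genes Ddx3y, Uty, Kdm5d and Eif2s3y had reads in all 9 libraries and Xist had no row. The part of these marker lists in the results was not tested.

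Levels are given as normalised counts, and fold changes as the log2 difference of (normalised count + 1), old minus young. Percentages of the young level are these differences taken back from the log2 scale. A gene is named called when limma gave an adjusted p-value under 0.05 over all 12667 genes tested. All 50 enzymes passed the filter on low counts. Of these, 29 were lower in old kidneys, 5 were higher and 16 were not called. That is 58% lower and 10% higher, where 30.5% of all genes tested were lower and 29.2% higher (59.7% in either direction). The median log2 fold change was -0.45 over the enzymes and -0.0027 over all genes tested. In 14 enzymes the call came with a level at least 2-fold lower, which held for 13.9% of all genes. The young and old libraries did not overlap for 23 enzymes that were lower and 3 that were higher, where 25.7% and 23.3% of all genes were so. With the reads of mitochondrially encoded genes left out before scaling, 25 enzymes were lower (50% against 25.1% of all genes) and 8 higher (16% against 35.4%). With the trend of fold change on transcript length removed, 24 were lower (48% against 28.7% of all genes) and 8 higher (16% against 28.8%). Without young replicate 2 and old replicates 1 and 3, the libraries highest in adipocyte markers, 24 were lower (48% against 26.9% of all genes) and 5 higher (10% against 24.9%).

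**Figure D1:**
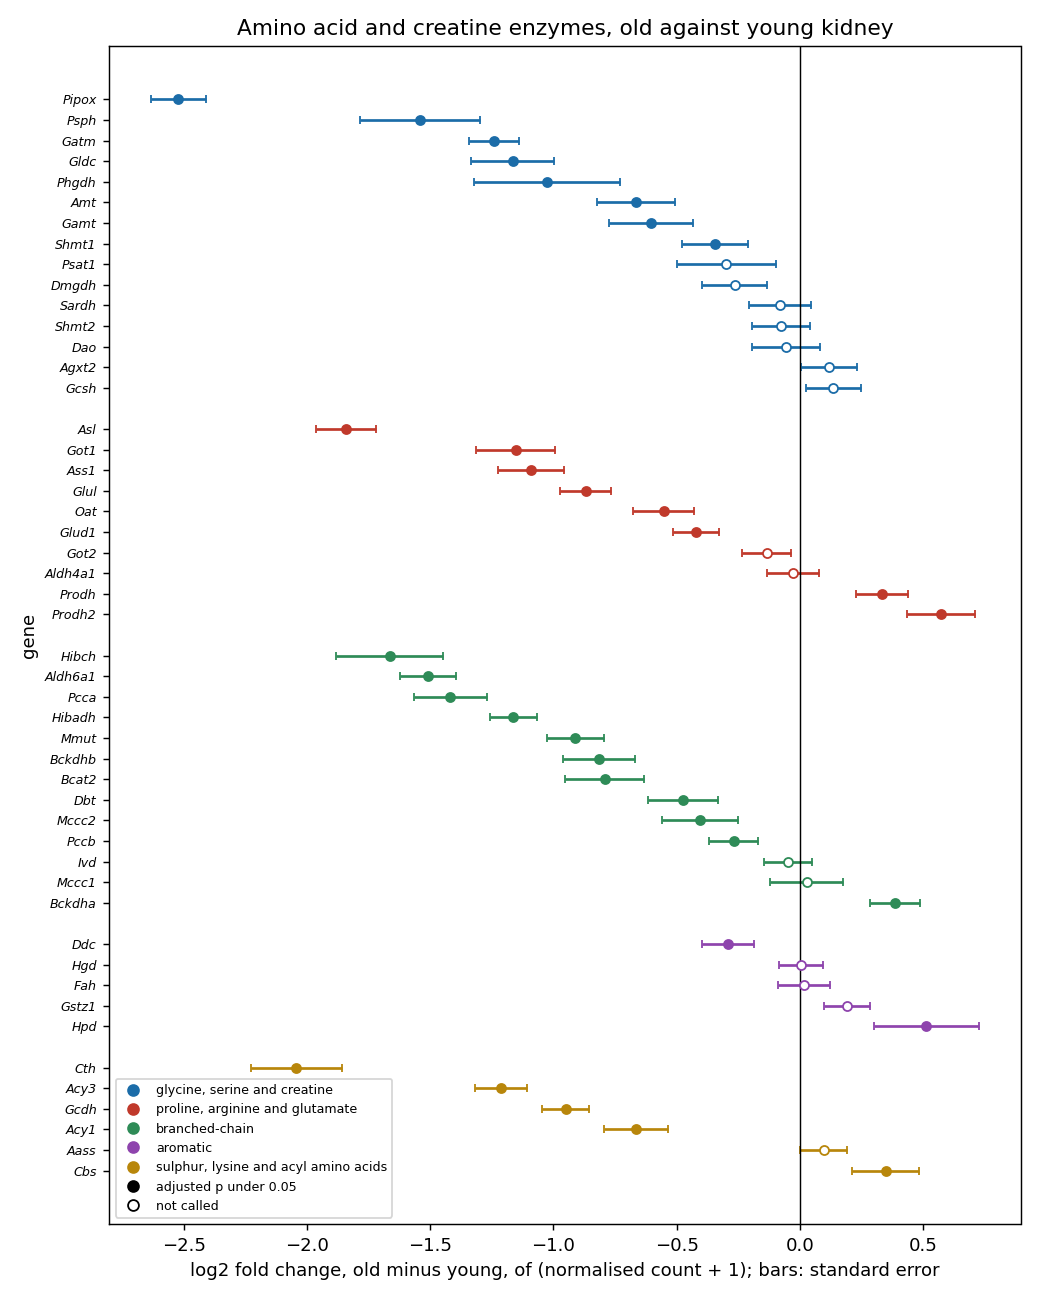
Log2 fold change (old minus young, of normalised count + 1) of 49 of the 50 enzymes, each with its standard error as a bar, coloured by group. Filled points passed an adjusted p-value of 0.05 in limma. They lie to the left of 0 in 29 enzymes and to the right in 5, and range from -2.52 for Pipox to 0.57 for Prodh2.

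In the glycine, serine and creatine group, 8 of 15 enzymes were lower in old kidneys, 0 were higher and 7 were not called, and the median log2 fold change was -0.35. The fall was greatest in Pipox, the peroxisomal oxidase of sarcosine and pipecolate (GRCm38, chr11:77880615-77894096, minus strand). Its normalised counts were 1529, 1366, 1358 and 1599.7 in the young and 213, 306, 229, 249.99 and 278 in the old libraries. Every old library lay far under every young one, the level fell to 17.4% of the young level, and the log2 fold change was -2.52 ± 0.11 (SE, adjusted p = 2.56e-12). Psph, the phosphatase that completes serine synthesis, counted 59, 86.5, 52.9 and 54.3 in young and 14.1, 30.6, 24.3, 20.5 and 17 in old libraries. It fell to 34.3% of the young level (adjusted p = 2.52e-05), from few counts. Phgdh, the entry enzyme of the same route, had a log2 fold change of -1.03 (adjusted p = 0.00607), but old replicate 3 at 34.5 lay within the young range of 27.8 to 43.5. Of the 50-base stretches near the end of its transcripts, 46.7% also occur in other genes, mostly pseudogenes, so its count is uncertain. Psat1, the transaminase between these enzymes, was not called (log2 fold change -0.30) and became so without old replicate 3 (-0.45, adjusted p = 0.0397, range over all alternatives 0.0397 to 0.610).

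The transcripts of both enzymes of creatine synthesis were lower, that of Gamt with less certainty. Gatm, which makes guanidinoacetate (chr2:122594467-122611303, minus strand), had 1905, 2078, 2310.0 and 2189 normalised counts in young and 929, 1059, 824, 915 and 770.2 in old libraries. The groups were far apart, at 2121 ± 172 against 899 ± 111 (mean ± SD), a log2 fold change of -1.24 ± 0.10 (SE, adjusted p = 7.78e-09). Gamt, which methylates guanidinoacetate, had 144, 112, 145 and 140.3 in young and 107, 123, 74, 75.6 and 72.1 in old libraries. The ages overlapped here through young replicate 2 and old replicate 2, and the log2 fold change was -0.61 (adjusted p = 0.00497). That call was lost with the length trend removed (-0.21, adjusted p = 0.267, range over all alternatives 0.000724 to 0.267). The ratio of Gatm to Gamt was 1.55-fold lower in old kidneys (adjusted p = 0.0181, two-sided exact permutation test), and all 5 old libraries lay under all 4 young ones. Among genes that use creatine, Ckb, the brain-type creatine kinase, rose to 159% of its young level (adjusted p = 0.00049). The creatine transporter Slc6a8 (log2 fold change 0.15) and the mitochondrial kinase Ckmt1 (0.04) were not called.

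In the glycine cleavage system, Gldc and Amt fell. Gldc, the decarboxylase, ran from 104 to 138 normalised counts in young and from 41.4 to 69 in old libraries (log2 fold change -1.17, adjusted p = 9.06e-06). Amt, the aminomethyltransferase, fell by 0.67 on the log2 scale (adjusted p = 0.00143), though old replicate 2 at 219 lay within the young range. Their ratio did not pass its test (-0.50, adjusted p = 0.107, exact permutation test). The carrier protein Gcsh was not called (log2 fold change 0.14), but was with mitochondrial genes left out (0.28, adjusted p = 0.0369) and with the length trend removed (0.46, adjusted p = 0.00178, range over all alternatives 0.00178 to 0.655). Cytosolic Shmt1, which exchanges serine and glycine, was lower at a log2 fold change of -0.35 (adjusted p = 0.0328). The call was lost without young replicates 1 (0.0592), 2 (0.062) or 3 (0.104) or old replicates 1 (0.0722) or 3 (0.0766), as adjusted p-values in a range of 0.0133 to 0.268 over all alternatives. It was also lost with mitochondrial genes left out (log2 fold change -0.20, adjusted p = 0.179), with the length trend removed (-0.20, adjusted p = 0.196) and without the 3 libraries highest in adipocyte markers (-0.21, adjusted p = 0.268). Mitochondrial Shmt2 was not called (-0.08).

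The mitochondrial dehydrogenases of the choline route to glycine were not called. Sardh, which demethylates sarcosine as Pipox also does, had 1232, 1261, 1283 and 1297 normalised counts in young and 1340.2, 1091, 865, 1494 and 1312 in old libraries, and was not called (log2 fold change -0.08). Dmgdh, which makes sarcosine from dimethylglycine, had 230.1, 219, 217 and 238 in young and 207, 164, 149, 236 and 195 in old libraries. It was not called (-0.26, adjusted p = 0.0914), but was with equal table totals (-0.32, adjusted p = 0.0359) and without old replicate 4 (-0.35, adjusted p = 0.0282, range over all alternatives 0.0282 to 0.407). The ratio of Dmgdh to Sardh was lower in old kidneys by 0.18 on the log2 scale (adjusted p = 0.0476, exact permutation test), with overlap between the ages. It no longer passed with a pseudocount of 5 (adjusted p = 0.0564) or without young replicates 1 (0.127), 2 (0.0857) or 4 (0.0857). The D-amino acid oxidase Dao (-0.06) and the aminotransferase Agxt2 (0.12) were not called. Agxt2 was called higher with the length trend removed (0.35, adjusted p = 0.0125, range over all alternatives 0.0125 to 0.700).

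**Figure D2:**
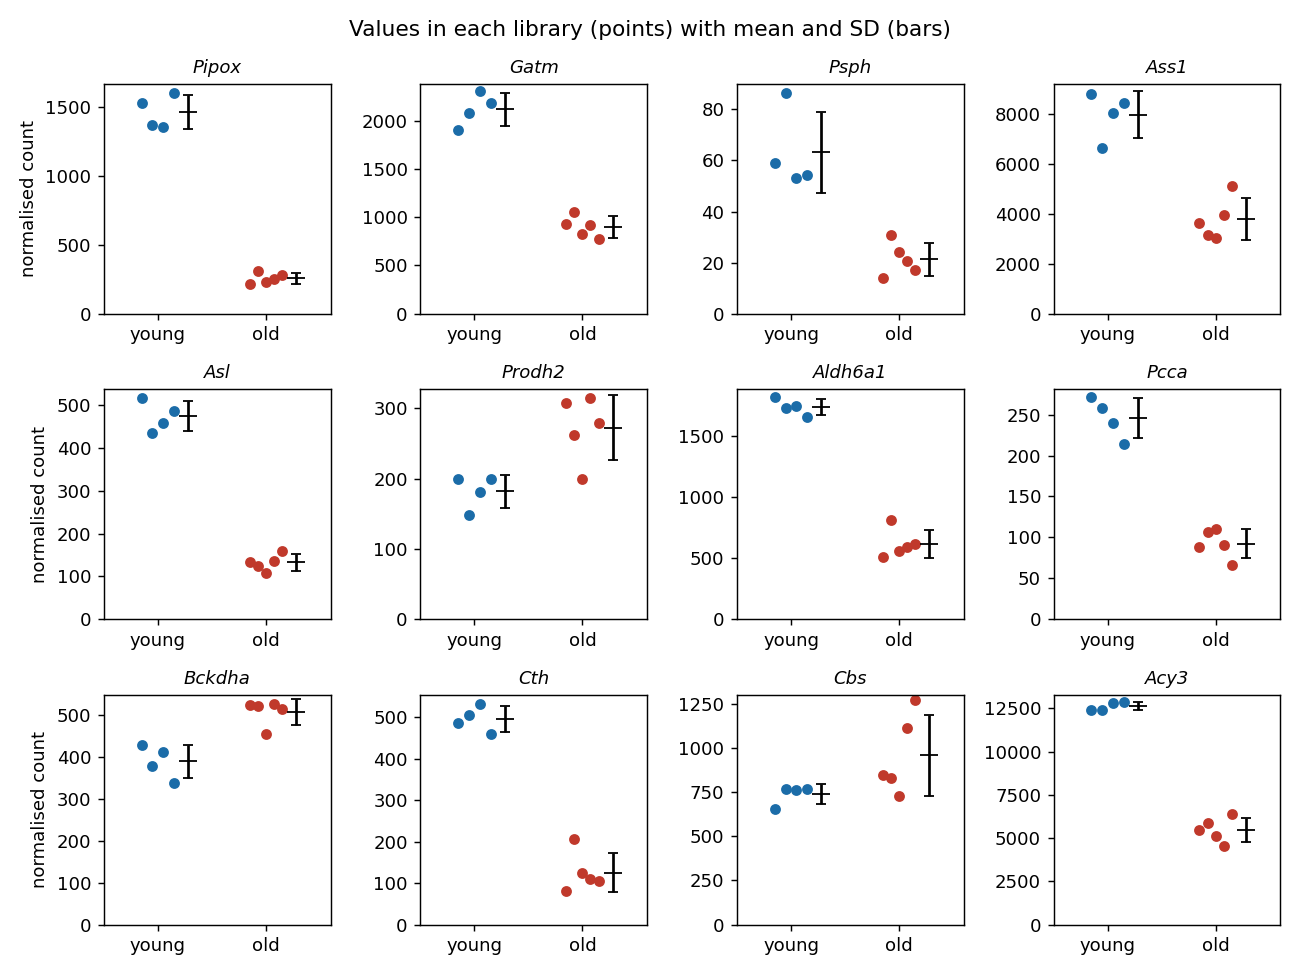
Normalised count in each of the 4 young (blue) and 5 old (red) libraries for 12 enzymes, with the mean and SD as a bar at the right of each group. Young and old points do not overlap for the falls of Pipox, Gatm, Psph, Ass1, Asl, Aldh6a1, Pcca, Cth and Acy3 or for the rises of Prodh2 and Bckdha, and they do for Cbs.

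In the proline, arginine and glutamate group, 6 of 11 enzymes were lower, 2 were higher and 3 were not called, and the median log2 fold change was -0.55. Both enzymes of renal arginine synthesis fell. Asl, which releases arginine from argininosuccinate (chr5:130011258-130029247, minus strand), had 518, 436, 459 and 487 normalised counts in young and 134, 124, 109, 136 and 160.2 in old libraries. No old library came near the young range, and the log2 fold change was -1.84 ± 0.12 (SE, adjusted p = 3.89e-10). Ass1, which joins citrulline to aspartate (chr2:31470207-31520672, plus strand), had 8815, 6658, 8064 and 8446 in young and 3658, 3177, 3049.5, 3976 and 5132 in old libraries. The highest old library was still under the lowest young one, and the log2 fold change was -1.09 ± 0.13 (SE, adjusted p = 1.29e-06). Of the 50-base stretches near its end, 28.8% also occur in the Gm5424 gene, so its level is uncertain. The ratio of Ass1 to Asl was higher in old kidneys by 0.75 on the log2 scale, in 5 of 5 old libraries against all young ones (adjusted p = 0.0181, exact permutation test).

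The transaminases of aspartate differed by compartment. Cytosolic Got1 had 423, 548, 522 and 481 normalised counts in young and 243, 313, 234, 198 and 147 in old libraries. All old libraries were under the young ones, with a log2 fold change of -1.15 (adjusted p = 5.78e-06). Mitochondrial Got2 had 1337, 1339.9, 1394 and 1511 in young and 1424, 1325, 1077, 1417 and 1146 in old libraries, with overlap and no call (-0.13). Their ratio was 2.02-fold lower in old kidneys (adjusted p = 0.0181, exact permutation test), which no longer passed without young replicates 2 (adjusted p = 0.0816) or 3 (0.0635). Glutamine synthetase, Glul, which binds ammonia to glutamate, fell to 54.7% of its young level (adjusted p = 8.23e-07), and 12.7% of the stretches near its end are shared with other genes. Glutamate dehydrogenase, Glud1, fell to 74.7% (adjusted p = 0.000785), with 6.47% of such stretches shared. Oat, which links ornithine to glutamate semialdehyde, fell to 68.2% (adjusted p = 0.000866).

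The proline and hydroxyproline dehydrogenases were the enzymes of the group that rose. Prodh2, the hydroxyproline dehydrogenase, had 199, 149, 180.4 and 199 normalised counts in young and 308, 261, 199.8, 315 and 279 in old libraries. The old values began just above the highest young value, and the log2 fold change was 0.57 ± 0.14 (SE, adjusted p = 0.00158). Prodh, the proline dehydrogenase, had 416, 407, 428 and 322 in young and 497, 513, 485, 528 and 444 in old libraries. It rose by 0.33 on the log2 scale without overlap (adjusted p = 0.0106), but the call was lost without young replicate 4 (0.24, adjusted p = 0.0595) and with the length trend removed (0.18, adjusted p = 0.147, range over all alternatives 0.000658 to 0.147). Aldh4a1, which takes both products on to glutamate or its hydroxylated form, was not called (-0.03). The ratio of Prodh to Aldh4a1 did not pass its test (0.36 on the log2 scale, adjusted p = 0.0564, exact permutation test).

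In the branched-chain group, 10 of 13 enzymes were lower, 1 was higher and 2 were not called, and the median log2 fold change was -0.79. The largest falls were in valine breakdown. Hibch, which releases 3-hydroxyisobutyrate from its CoA ester, had 103, 98.1, 91.2 and 71.5 normalised counts in young and 24.8, 29.5, 26.4, 19.6 and 43.5 in old libraries. Aldh6a1, the methylmalonate semialdehyde dehydrogenase (chr12:84430717-84451004, minus strand), had 1816, 1731, 1742 and 1655 in young and 510.4, 812, 554, 594 and 617 in old libraries. All old libraries of both genes were under all young ones, with log2 fold changes of -1.66 ± 0.22 for Hibch (adjusted p = 2.62e-06) and -1.51 ± 0.11 for Aldh6a1 (adjusted p = 2.61e-09). Hibadh, the dehydrogenase between these steps, fell to 44.7% of its young level (adjusted p = 7.51e-09). Its gene overlaps Gm44434 on the same strand.

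The branched-chain keto acid dehydrogenase, the committed step of the pathway, changed unequally among its subunits. Bckdha, which encodes the E1 alpha subunit, had 428, 379, 411 and 338 normalised counts in young and 523, 522, 453, 525 and 513 in old libraries. Bckdhb, the E1 beta subunit, had 155, 154, 162 and 154 in young and 112, 89.7, 98.4, 70 and 77.4 in old libraries. So Bckdha was higher in all 5 old libraries (log2 fold change 0.39, adjusted p = 0.0027) and Bckdhb was lower in all 5 (-0.82, adjusted p = 9.18e-05). Their ratio was 2.30-fold higher in old kidneys (adjusted p = 0.0181, exact permutation test). The E2 subunit Dbt fell to 72% (log2 fold change -0.47, adjusted p = 0.007), with overlap. Its call was lost without the 3 libraries highest in adipocyte markers (-0.33, adjusted p = 0.109, range over all alternatives 0.000552 to 0.109). Bcat2, the mitochondrial transaminase that begins the pathway, fell to 57.7% (adjusted p = 0.000309).

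The subunits of propionyl-CoA carboxylase also changed unequally. Pcca, the biotin-carrying subunit (chr14:122534324-122891100, plus strand), had 271, 258, 240.2 and 215 normalised counts in young and 88.4, 106, 111, 90.5 and 66.8 in old libraries. Pccb, the other subunit, had 1097, 1115, 1090.3 and 1161 in young and 845, 1092, 931, 993 and 798 in old libraries. Pcca fell to 37.4% of its young level without overlap (adjusted p = 1.66e-07). Its gene overlaps Gm49260 on the same strand. The smaller fall of Pccb, to 83% with overlap (adjusted p = 0.0253), lost its call without young replicates 2 (0.0536) or 4 (0.0647) or old replicates 1 (0.063) or 5 (0.0611), as adjusted p-values in a range of 0.00504 to 0.630 over all alternatives. The call of Pccb, at a log2 fold change of -0.27, was also lost without the 3 libraries highest in adipocyte markers (-0.23, adjusted p = 0.158). The same held with mitochondrial genes left out (-0.13, adjusted p = 0.291) and with the length trend removed (-0.06, adjusted p = 0.630). The ratio of Pcca to Pccb was 2.22-fold lower in old kidneys (adjusted p = 0.0181, exact permutation test). Mmut, the cobalamin-dependent mutase that ends the propionate route, fell to 53.2% (adjusted p = 1.93e-06). In leucine breakdown Ivd (log2 fold change -0.05) and Mccc1 (0.03) were not called. Mccc1 and Mccc2 encode the subunits of methylcrotonoyl-CoA carboxylase. Their ratio did not pass its test (0.43 on the log2 scale, adjusted p = 0.107, exact permutation test). Mccc2 was lower by 0.41 on the log2 scale (adjusted p = 0.0291), a call lost without young replicates 1 (0.071) or 4 (0.0979) or old replicates 1 (0.054) or 5 (0.069), as adjusted p-values in a range of 0.0193 to 0.343 over all alternatives. The call of Mccc2 was also lost without the 3 libraries highest in adipocyte markers (log2 fold change -0.46, adjusted p = 0.0596). The same held with mitochondrial genes left out (-0.26, adjusted p = 0.155) and with the length trend removed (-0.17, adjusted p = 0.343).

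Of 18 other genes tested in the same pathway, 12 were lower (66.7% against 30.5% of all genes tested) and 2 were higher (11.1% against 29.2%). The remaining 4 were not called. Acat1, the thiolase that ends isoleucine and ketone body breakdown, fell to 37.3% of its young level (adjusted p = 1.24e-09). Mcee, the epimerase before Mmut, fell to 47.5% (adjusted p = 1.03e-06). Of the genes that prepare cobalamin for the mutase, Mmachc fell to 35.1% (adjusted p = 6.6e-05), Mmadhc to 52.6% (adjusted p = 0.00181) and Mmaa to 53.1% (adjusted p = 0.000176), and Mmab was not called. Biotin handling was mixed. Btd, which recycles biotin, fell to 61.2% (adjusted p = 0.000299), while Hlcs, which attaches biotin to the carboxylases, rose to 216% (adjusted p = 6.82e-05).

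**Figure D3:**
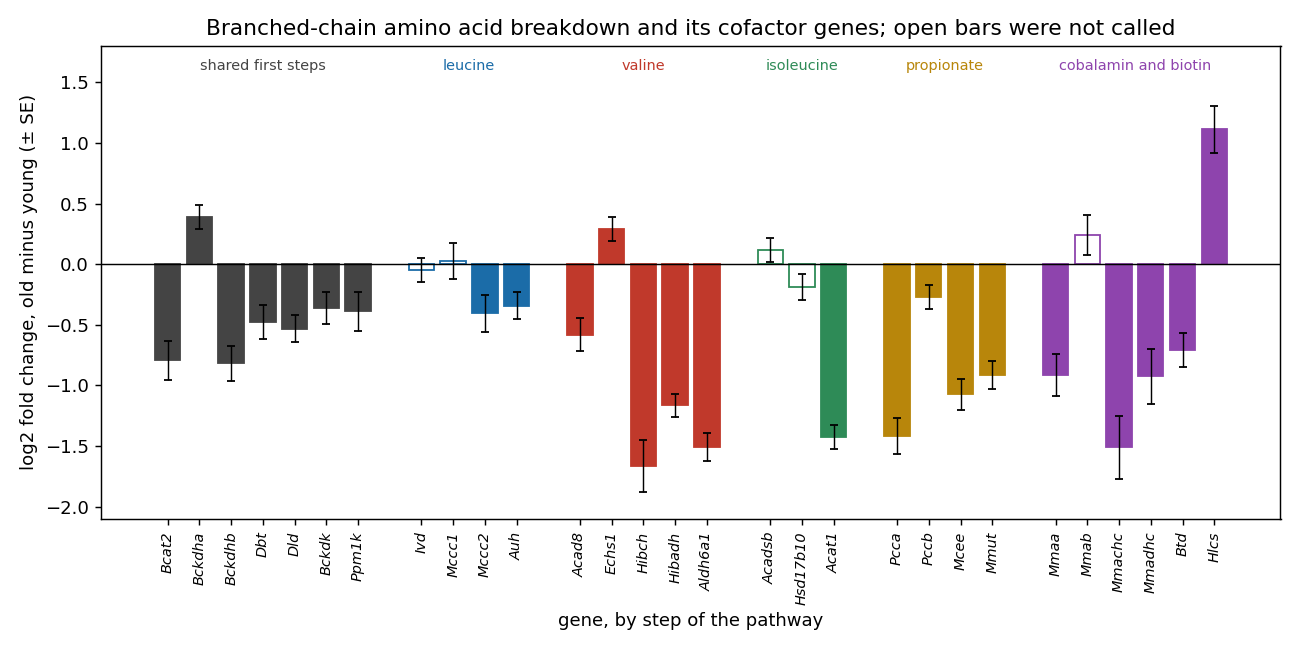
Log2 fold change (old minus young) of 13 branched-chain enzymes and of most other genes tested in the pathway, in pathway order, with the standard error as a line. Filled bars were called by limma and open bars were not. Filled bars point down in most steps, deepest for Hibch at -1.66, and up for Bckdha at 0.39, Echs1 at 0.29 and Hlcs at 1.11.

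In the aromatic group, 1 of 5 enzymes was higher, 1 was lower and 3 were not called, and the median log2 fold change was 0.02. With the length trend removed 4 were higher (80% against 28.8% of all genes) and 0 lower, and the median was 0.31. With mitochondrial genes left out 2 were higher (40% against 35.4% of all genes) and 0 lower. Hpd, the hydroxyphenylpyruvate dioxygenase, had 122, 147, 131 and 77 normalised counts in young and 165, 196, 103, 252 and 149.6 in old libraries. The ages overlapped and the call was marginal (log2 fold change 0.51, adjusted p = 0.0459). It was lost in 10 alternatives, among them without young replicates 1 (0.0677), 3 (0.0518) or 4 (0.208) or old replicates 1 (0.0729), 2 (0.0896) or 4 (0.14), as adjusted p-values in a range of 0.00225 to 0.208 over all alternatives. Ddc, the aromatic decarboxylase that makes dopamine in the proximal tubule, had 391, 414, 454 and 347 in young and 354, 324, 290.0, 343 and 324 in old libraries. It was lower at a log2 fold change of -0.29 (adjusted p = 0.0236), with overlap, and the call was lost without young replicates 2 (0.0639) or 3 (0.104) or old replicate 3 (0.0547), as adjusted p-values in a range of 0.00755 to 0.723 over all alternatives. It was also lost without the 3 libraries highest in adipocyte markers (log2 fold change -0.26, adjusted p = 0.122). The same held with mitochondrial genes left out (-0.15, adjusted p = 0.207) and with the length trend removed (-0.05, adjusted p = 0.723). Hgd and Fah, the next enzymes of tyrosine breakdown, were at 0.00 and 0.02 and were not called. Both were called higher with the length trend removed, Hgd at 0.29 (adjusted p = 0.00824, range over all alternatives 0.00824 to 0.998) and Fah at 0.32 (adjusted p = 0.014, range over all alternatives 0.014 to 0.967). Gstz1 was at 0.19 (adjusted p = 0.0829) and was called without old replicate 2 (0.23, adjusted p = 0.0359), with mitochondrial genes left out (0.33, adjusted p = 0.00294) and with the length trend removed (0.31, adjusted p = 0.00873, range over all alternatives 0.00294 to 0.206).

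In the sulphur, lysine and acyl amino acid group, 4 of 6 enzymes were lower, 1 was higher and 1 was not called, and the median log2 fold change was -0.81. The steps of transsulphuration differed. Cth, the lyase that releases cysteine (chr3:157894248-157925077, minus strand), had 485, 505, 531 and 458 normalised counts in young and 80.2, 206, 125, 110.1 and 106 in old libraries. Every old library was under every young one, old replicate 2 being the nearest, and the log2 fold change was -2.04 ± 0.18 (SE, adjusted p = 2.69e-08). Its gene overlaps Gm43314 on the same strand. Cbs, which joins homocysteine to serine, had 654, 771, 761 and 765 in young and 845, 828, 727, 1116 and 1271 in old libraries. Old replicate 3 lay within the young range, and the log2 fold change was 0.35 (adjusted p = 0.0329). The call of Cbs was lost without young replicates 1 (0.107) or 3 (0.0537) or old replicates 4 (0.0886) or 5 (0.0925) or with equal table totals (0.0515), as adjusted p-values in a range of 0.00273 to 0.690 over all alternatives. With the length trend removed its log2 fold change was 0.07 (0.690). The ratio of Cbs to Cth was 5.24-fold higher in old kidneys with no overlap (adjusted p = 0.0181, exact permutation test).

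Acy3, the aminoacylase that acts on N-acetylated aromatic amino acids and mercapturates (chr19:3986570-3990007, plus strand), was lower in all old libraries. It had 12431, 12417, 12829 and 12875 normalised counts in young and 5489, 5879, 5108, 4574 and 6394 in old libraries. The old libraries held less than any young one, at 43.2% of the young level (log2 fold change -1.21, adjusted p = 1.72e-08), and 11.2% of the stretches near its end are shared with Gm48931. Acy1, the general aminoacylase, fell to 63.1% (adjusted p = 0.000231). In lysine breakdown, Gcdh, the glutaryl-CoA dehydrogenase, had 782, 823, 748 and 750.5 in young and 397, 417, 362, 458 and 378 in old libraries. Aass, which begins that route, had 1156, 1125, 1117 and 975 in young and 1216, 1260.2, 1220.0, 1137 and 1013 in old libraries. Gcdh fell without overlap (-0.95, adjusted p = 1.13e-07), and Aass was not called (0.10), though it was with mitochondrial genes left out (0.24, adjusted p = 0.0402, range over all alternatives 0.0402 to 0.747). Their ratio was 2.06-fold higher in old kidneys (adjusted p = 0.0181, exact permutation test).

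Pairs of enzymes that form a complex, work in sequence or share a reaction were compared by the ratio of their (normalised count + 1) within each library. Of 16 pairs, 8 passed at an adjusted p-value under 0.05, and 7 of these did not overlap between ages. Among all genes tested, 49.0% did not overlap between the ages in their own levels. No share was taken over other pairs of genes, so these counts have no background of their own. The 7 pairs without overlap reached the smallest p that the exact permutation test allows with 4 and 5 libraries, 0.00794. The ratios of Glud1 to Glul (0.45 on the log2 scale, adjusted p = 0.0577), Hibch to Hibadh (-0.50, adjusted p = 0.127) and Hpd to Hgd (0.51, adjusted p = 0.135) did not pass the exact permutation test. For Shmt1 to Shmt2 the difference was -0.27 (adjusted p = 0.214, exact permutation test). For Gstz1 to Fah it was 0.17 (adjusted p = 0.0577, exact permutation test).

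**Figure D4:**
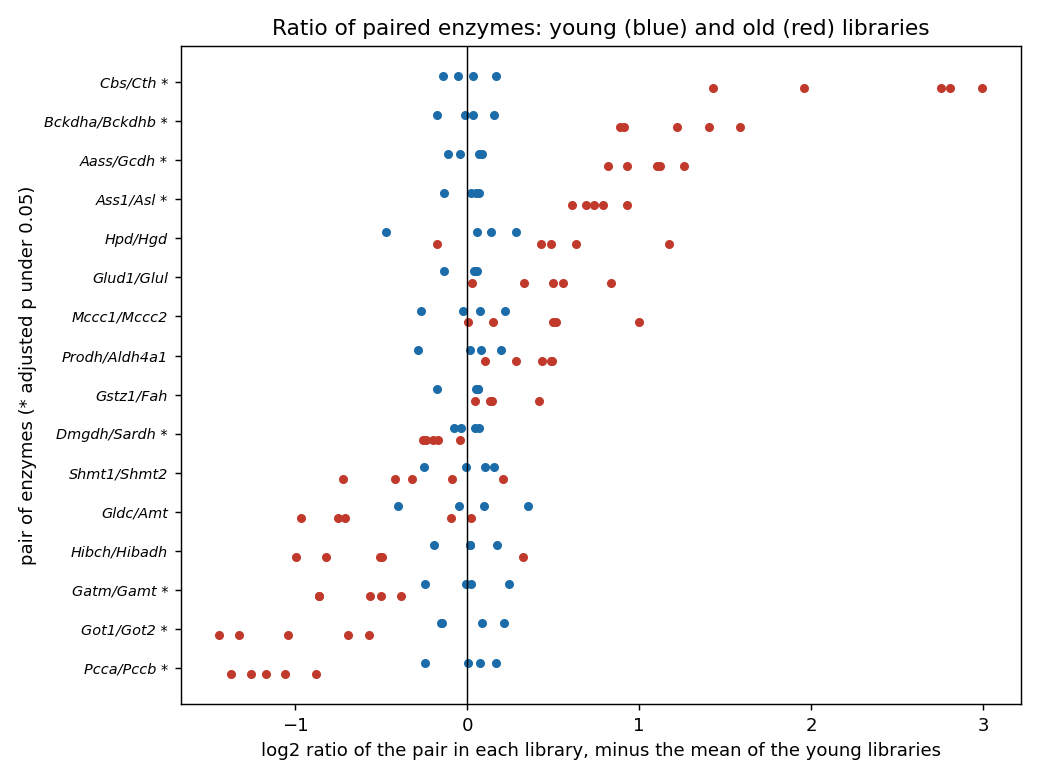
Log2 ratio of the enzymes of each of 16 pairs in each library, less the mean of the young libraries, for young (blue) and old (red) libraries. An asterisk marks an adjusted p-value under 0.05 in the exact permutation test. Red points lie right of all blue points for Cbs/Cth, Bckdha/Bckdhb, Aass/Gcdh and Ass1/Asl, and left of them for Pcca/Pccb, Got1/Got2 and Gatm/Gamt.

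The old libraries were not equally far from the young ones. Among the 29 enzymes that fell, old replicate 2 was the highest old library in 13 and old replicate 5 in 6. Old replicate 5 was the lowest in 11 and old replicate 3 in 8. No such count was taken over all genes. The same replicate 2 stood highest for Cth, Aldh6a1, Gatm, Psph and Got1. Leaving out any 1 library gave 30 to 34 called enzymes.

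Among 91 other tested genes, of amino acid metabolism and of the ATF4 response described next, 46 were lower (50.5% against 30.5% of all genes tested). Another 23 were higher (25.3% against 29.2%) and 22 were not called, and the median log2 fold change was -0.23. Of 19 glycine, serine, one-carbon and creatine genes, 8 were lower and 5 higher (median 0.04). Of 18 proline, arginine, glutamate and aspartate genes, 8 were lower and 5 higher (-0.03). Of 9 aromatic and pterin genes, 6 were lower and 2 higher (-0.42). Of 20 sulphur, lysine, histidine and dipeptide genes, 10 were lower and 6 higher (-0.13). The largest fall of the 91 was in Tst, the mitochondrial thiosulphate sulphurtransferase, which went from 225 ± 19.7 to 17.2 ± 4.02 normalised counts (mean ± SD, log2 fold change -3.66, adjusted p = 1.56e-11). Its relative Mpst, which handles mercaptopyruvate, rose to 224% (adjusted p = 1.29e-05). Ddah2, of the dimethylarginine hydrolase family, fell to 27.5% (adjusted p = 2.43e-07). Aldh3a2, a fatty aldehyde dehydrogenase, fell to 28.7% (adjusted p = 5.47e-09) and Aadat, the aminoadipate transaminase of lysine breakdown, to 28.9% (adjusted p = 8.73e-09). Of the risers, Ftcd, which moves a one-carbon unit from histidine breakdown to folate, reached 313% of the young level (adjusted p = 1.93e-06). Mtr, the methionine synthase, reached 216% (adjusted p = 1.17e-05).

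Serine synthesis genes are known targets of ATF4, the transcription factor of the amino acid response. Atf4 itself was not called (log2 fold change 0.22). Of the 8 tested genes of this response, which are counted among the 91, 3 were higher, 2 were lower and 3 were not called. The called share was 62.5%, near the 59.7% of all genes tested. Sesn2, a stress-induced inhibitor of mTORC1, rose to 342% (adjusted p = 6.19e-08), and Ddit3, a stress-induced transcription factor, to 207% with overlap (adjusted p = 0.000854). Slc3a2, the heavy chain of amino acid exchangers, fell to 74.1% (adjusted p = 0.021). Asns, the asparagine synthetase, was under the filter, with 9.8 to 15.6 normalised counts in young and 2.8 to 9.13 in old libraries.

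The start regions of the genes were searched for elements of ATF4 (TGATGNAA, on the other strand TTNCATCA) and HNF1 (a 10-letter part of its site, both strands), and 45 of the 50 enzymes had a RefSeq promoter (GRCm38.p6). The ATF4 letters stood in 1 of 45 (2.22%), Got1, and in 2.59% of 9837 promoters of genes in the table. The HNF1 letters stood in 1 of 45, Prodh2, and in 0.376% of all promoters. A match is a description of letters only. The median GC content was 60.3% for enzymes that fell, 61.3% for those that rose and 61.0% for all genes. The 250 bases before the start as RefSeq places it are shown for Aldh6a1, which fell strongly and holds neither element, and for the enzymes with a match, the match in capitals. The GENCODE gene of Prodh2 begins slightly before that start. These were chosen after their values were seen. The windows are chr12:84451025-84451274 (Aldh6a1, minus strand), chr19:43524606-43524855 (Got1, minus strand, match 102 bases before the start) and chr7:30493408-30493657 (Prodh2, plus strand, match 128 bases before the start).
Aldh6a1: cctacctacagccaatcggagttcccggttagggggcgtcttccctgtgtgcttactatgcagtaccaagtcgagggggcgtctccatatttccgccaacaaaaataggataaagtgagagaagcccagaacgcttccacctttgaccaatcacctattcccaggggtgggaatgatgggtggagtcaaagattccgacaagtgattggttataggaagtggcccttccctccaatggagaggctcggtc
Got1: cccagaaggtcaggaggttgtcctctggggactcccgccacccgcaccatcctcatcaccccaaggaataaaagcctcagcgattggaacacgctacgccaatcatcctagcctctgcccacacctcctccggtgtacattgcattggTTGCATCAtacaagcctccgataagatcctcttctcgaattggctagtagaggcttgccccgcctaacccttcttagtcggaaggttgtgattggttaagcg
Prodh2: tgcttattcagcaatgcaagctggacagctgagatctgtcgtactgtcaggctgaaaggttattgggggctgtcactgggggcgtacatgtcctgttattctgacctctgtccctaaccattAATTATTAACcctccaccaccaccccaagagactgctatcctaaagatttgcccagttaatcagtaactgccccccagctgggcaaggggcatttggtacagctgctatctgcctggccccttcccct

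The enzymes had shorter transcripts, by median, than all genes tested. Median transcript length was 2167 bases for those that fell, 1899 for those that rose and 3331 for all genes tested. Over the 50 enzymes, Spearman's rho of log2 fold change was 0.04 with length and 0.14 with mean level, as a description, since the enzymes share the same libraries. Over 12456 genes rho with length was 0.28.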

How the data were processed

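RNA-seq libraries of wild-type mouse kidney, 4 young and 5 old, were analysed. The labels describe oligo(dT) priming with a QuantSeq kit, which reads transcript ends, and stranded sequencing. The labels and the study's methods name different kit versions. The authors aligned reads to GRCm39 with TopHat2 (2.0.10), counted them by strand with HTSeq (0.6.1) on GENCODE annotation and normalised with DESeq. The authors deposited this normalised signal, in which each library's reads were divided by a single size factor. Taking the smallest step of each library as 1 read, 100% of values were whole reads within a tolerance of 0.01. The lowest gene mean was 4.49, so low genes had been left out before deposition.

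Ages were compared by limma 3.58.1 with an eBayes variance trend (R 4.3.3) after adding 1 and taking log2, for genes that reached 10 normalised counts in 4 or more libraries, with Benjamini-Hochberg adjustment over all 12667 genes tested. On the recovered whole reads, edgeR 4.0.16 called 7649 genes and DESeq2 1.42.0 called 7532, with 9 adjusted p-values missing, and all 34 called enzymes were called by both. Ratios of 16 enzyme pairs were compared by a two-sided exact permutation test over libraries, adjusted over the pairs. The floor of 3 reads equals 4.72e-05 to 6.69e-05% of a library and covers counting error only, because PCR copies were not told apart. The members, gene lists and tests were chosen with earlier results of these data known. Values in each library are given for the 3 called enzymes with the largest change in each group, for both genes of each pair that passed and for enzymes that rose against most of their group. Of the other genes, the 5 largest rises and falls with a mean of at least 50 are named, with further pathway genes chosen after their values were seen. Values of a few single genes are not reported here, though the counts include them.

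Gene positions came from GENCODE vM21 on GRCm38, not the build of the counts, and matched 98.3% of genes. In that annotation 10 enzymes overlap another gene on the same strand, whose reads HTSeq may leave out. They are Agxt2, Oat, Aldh4a1, Glul, Dbt, Mccc1, Pcca, Hibadh, Hpd and Cth. The scripts were tested on simulated data before use.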

Additional observations from a re-analysis of the deposited data

Results flagged for a closer look

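In 7 of 100 groups of 4 or 5 libraries (50 enzymes at 2 ages), 1 library stood apart from the others of its age, where chance flags about 1 in 20. The number given is its gap to the nearest library over the range of the group. Gamt was low in young replicate 2, at 112 normalised counts against 140.3 to 145 (0.871). Agxt2 was low in young replicate 3, at 176 against 205 to 211 (0.840). Bckdha was low in old replicate 3, at 453 against 513 to 525 (0.846). Bckdhb was high in young replicate 3, at 162 against 154 to 155 (0.886). Cbs was low in young replicate 1, at 654 against 761 to 771 (0.923). Acy1 was low in young replicate 1, at 455 against 500.4 to 509.7 (0.837), and in old replicate 3, at 217 against 313 to 357 (0.734).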

How the results depend on the processing

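Under 21 alternatives, 25 of the 34 called enzymes kept their call under every one in which they were tested (5 of these had too few counts to be tested at the higher filter), 9 lost it at least once, 8 others gained one at least once, and 0 called enzymes changed direction. No paired analysis was possible because the titles carry no replicate number shared between the ages. The settings were pseudocounts of 0.1 and 5, no filter, a mean of at least 100, TMM factors, equal table totals, robust eBayes, edgeR, DESeq2, mitochondrial genes left out, the length trend removed, and each library left out in turn. Leaving out the 3 libraries highest in adipocyte markers was chosen after seeing the data. Psph and Phgdh had under 100 normalised counts in every library, and standard errors of 0.24 and 0.30. The cause of changes was not tested, apart from fewer genes with a mean of at least 100 and fewer libraries where some are left out.

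With a mean of at least 100, 4101 genes were called, as were 5 enzymes of the glycine, serine and creatine group. The aromatic group had 1 called enzyme with that filter, with a pseudocount of 0.1, with equal table totals and with robust eBayes. With the length trend removed it had 4, all higher. Leaving out 1 library gave 6900 to 7626 genes called, 30 to 34 enzymes, 7 to 9 of glycine, serine and creatine, 7 to 8 of proline, arginine and glutamate, 9 to 11 branched-chain, 0 to 2 aromatic, 4 to 5 sulphur, lysine and acyl, and 58 to 65 other pathway genes. It gave 0 to 7 pairs, since without an old library the smallest exact permutation p is 0.0286, which becomes 0.0508 to 0.0653 after adjustment over 16 pairs.

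Leaving out mitochondrial genes raised the median log2 fold change of all genes by 0.14 and the share of calls that were higher from 48.9% to 58.5% over all genes. For enzymes, 24.2% of calls were then higher, and 25.0% with the length trend removed, against 14.7%. Enzymes that were not called changed direction as follows. Without mitochondrial genes the log2 fold changes were 0.065 for Shmt2, 0.061 for Sardh, 0.086 for Dao, 0.11 for Aldh4a1, 0.0074 for Got2 and 0.10 for Ivd. With the length trend removed they were 0.14 for Shmt2, 0.19 for Dao, 0.049 for Got2 and -0.30 for Mccc1. With equal table totals they were -0.024 for Mccc1, -0.048 for Hgd and -0.036 for Fah. Without the 3 libraries highest in adipocyte markers they were 0.020 for Sardh and 0.052 for Dao. Without 1 library they ran from -0.16 to 0.037 for Sardh, -0.15 to 0.072 for Dao, -0.10 to 0.041 for Aldh4a1, -0.029 to 0.16 for Mccc1, -0.032 to 0.023 for Hgd and -0.023 to 0.11 for Fah.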
